A study of Mus musculus with 4 samples.

Results

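The mitochondrial ribosomal protein genes were described in N2a cells with and without manganese. N2a is a mouse neuroblastoma cell line, and manganese is an essential metal that harms neurons in excess. The members were the rows of the mRNA table whose gene symbol begins with Mrpl or Mrps and a digit. There were 78 of them among 22287 genes, 49 named for the large subunit and 29 for the small subunit. The untreated group was 1 total RNA library of N2a cells with no manganese named in its title. The treated group was 1 total RNA library of N2a cells kept with 300 µM manganese for 48 h. The treatment field names manganese for every sample, the untreated ones included, so only the titles tell the groups apart, and each ratio rests on them. Ribosomal RNA had been removed from both, and the labels name no genetic change in either. The series also holds 1 small RNA library for each condition, which was not used here. With 1 library per group no difference has a replicate check, no p-value can be given, and each ratio compares these libraries and not the conditions.

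Mitochondria carry their own ribosome, which translates the few messages of the mitochondrial genome into core subunits of the respiratory chain. Its RNA is made inside the organelle, but its proteins are encoded in the nucleus, translated in the cytosol and imported. The small subunit holds the messenger RNA and reads its codons. The large subunit joins the amino acids and releases the nascent chain through an exit tunnel at the inner membrane. Some of the proteins have bacterial relatives and others were added in the mitochondrial lineage, and inherited defects of several cause respiratory chain disease.

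Gene reads summed to 13972437 without manganese and to 14606961 with it. Of the 22287 genes, 11872 had at least 20 reads over both libraries and counted as measured, and all 78 members were among them. Of 10 markers of neuroblastoma and neural cells 8 were measured, at 2889 and 2806 CPM in sum (reads scaled by the column total), while Nefl and Nefm had 0 reads in both libraries. Summed markers of fibroblasts stood at 3.58 and 4.86 CPM, those of glia at 13.7 and 21.4, those of epithelium at 0.716 and 1.92 and those of macrophages and leukocytes at 0.286 and 0.753. These small sums were all higher in the Mn-treated library, and their part in the values below was not tested. In libraries of whole cultures, fewer cells that express a gene and less RNA per cell cannot be told apart.

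The members took a smaller share of the mRNA reads in the Mn-treated library. Together they held 65345 reads, 0.468% [0.464 to 0.471] of the untreated library, and 59856 reads, 0.410% [0.407 to 0.413] of the Mn-treated one, a ratio of 0.876 [0.867 to 0.886]. Brackets give exact binomial 95% intervals (Clopper-Pearson), which cover counting error only, since reads copied by PCR and not tagged by molecule are not independent. The large subunit stood at 0.301% and 0.257%, a ratio of 0.857 [0.845 to 0.869]. The small subunit stood at 0.167% and 0.152%, a ratio of 0.911 [0.894 to 0.928]. The large subunit sum leaned on few genes. Mrpl12 alone held 17.2% of that subunit's reads in the untreated library and 13.4% in the Mn-treated one, and without it the ratio was 0.896. As shares of the summed FPKM (fragments scaled to transcript length and library size, computed by the authors), the subunits had ratios of 0.924 and 0.956.

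Gene by gene the subunits lay close together. The log2 ratio sets the share of reads with manganese over the share without, from reads plus 0.5 and column totals, so a positive value is higher with manganese. Its median was -0.06 over the 49 large subunit genes and -0.12 over the 29 small subunit genes, a difference of 0.06. That difference was small beside the spread within each subunit, whose interquartile ranges were 0.53 and 0.43. Mrps18a and Mrps30 carry a small subunit name but sit in the large subunit, and Mrps36 belongs to the 2-oxoglutarate dehydrogenase complex. Assigned by structure, the medians were -0.06 and -0.12 again.

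**Figure D1:**
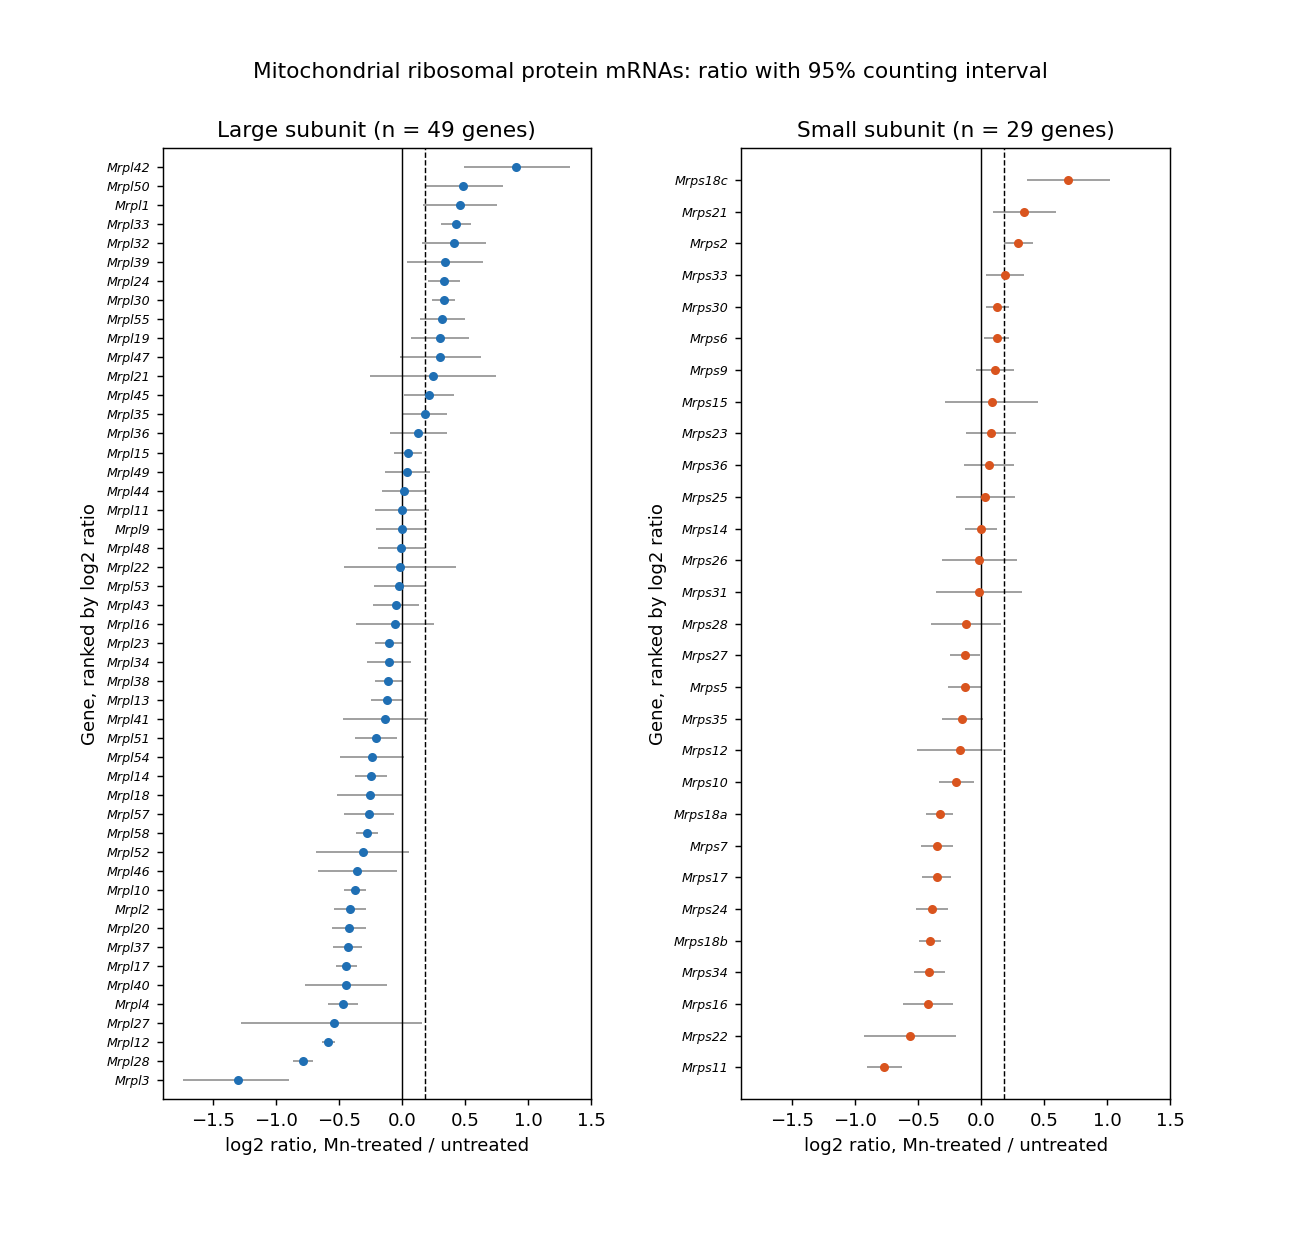
Log2 ratio (x axis) of each of the 49 large subunit genes and 29 small subunit genes, ranked on the y axis, with exact 95% counting intervals as bars. The solid line marks 0 and the dashed line the middle measured gene at 0.18; 36 large and 25 small subunit genes lie left of the dashed line.

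Most members were below the middle gene of these libraries. On the scale of column totals the middle of the 11872 measured genes lay at a log2 ratio of 0.18, so a member at 0 is lower than it. Of the 78 members 61 lay below it, 36 of 49 in the large and 25 of 29 in the small subunit, where 50.0% of all measured genes do by construction. The 95% interval lay wholly below the middle gene for 42 members (53.8%) and wholly above it for 6 (7.69%), against 31.1% and 29.0% of all measured genes. The median of the members was 0.26 below the middle gene, a value that a common scaling factor does not change. Read against 0 in place of the middle gene, 48 members were lower, as were 35.2% of all measured genes. The interval lay wholly below 0 for 27 members and wholly above it for 18, against 19.8% and 43.6% of all measured genes.

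Large single differences were few. By at least 1.5-fold 2 members were higher, Mrpl42 and Mrps18c, and 4 were lower, Mrpl3, Mrpl28, Mrpl12 and Mrps11. Over all measured genes 21.6% were higher and 5.97% lower, so the 2.56% of members that were higher lay under the background and the 5.13% that were lower lay near it. Relative to the middle gene 1 member, Mrpl42, was higher by 1.5-fold and 14 were lower, which is 1.28% and 17.9% of the members. All measured genes had 13.4% and 11.3%.

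Genes of like length and read number lay close to the members. Member transcripts were short: reads per unit of FPKM, a measure of the length used by the authors, had a median 0.44 times that of the middle measured gene. The members also had more reads than most, with a median of 1033 over both libraries against 661. The 797 other genes within the members' interquartile ranges of both reads (406 to 2204) and relative length (0.329 to 0.613) had a median log2 ratio of -0.04. Of them 73.9% lay below the middle gene, against 78.2% of the members, and 17.6% were at least 1.5-fold below it, against 17.9%. The interval lay wholly below the middle gene for 54.1% of them and wholly above it for 12.0%. For the members these shares were 53.8% and 7.69%. In the read range alone the median was 0.20, and in the length range alone it was -0.01.

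**Figure D2:**
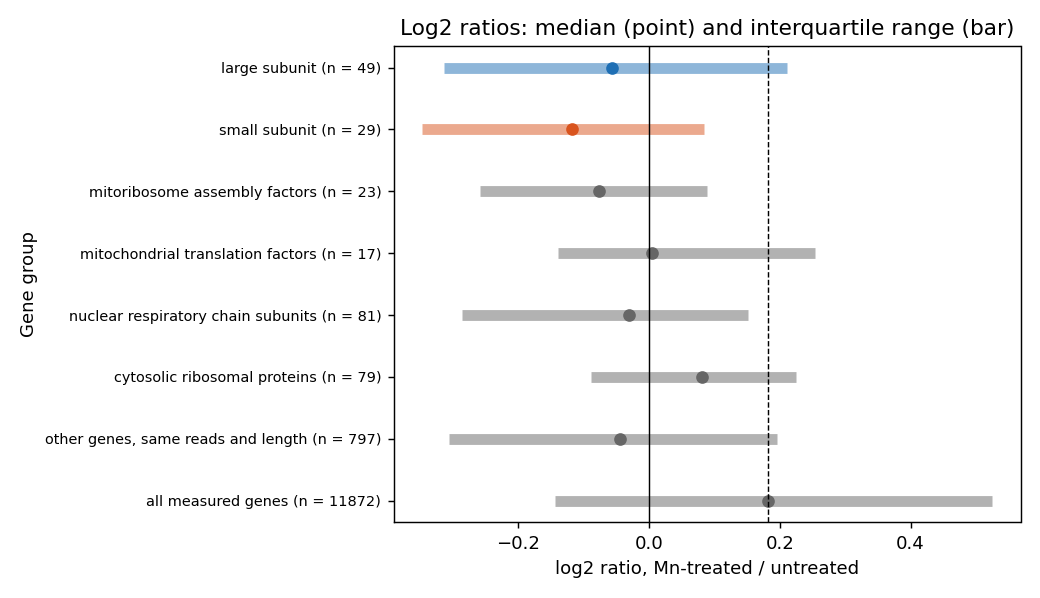
Median log2 ratio (point) and interquartile range (bar) of each gene group, with the number of genes in brackets. The large and small subunit medians of -0.06 and -0.12 lie close to that of other genes of the same read and length ranges (-0.04), and all of these lie left of the dashed line at the middle gene (0.18).

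The promoters of 5 of the 6 members past 1.5-fold are shown because these members mark the ends of the range, and that of Mrps18a for contrast with its paralog. The sequences are from the RefSeq promoter table (build GRCm38.p6), which held 69 of the 78 members, and give the 156 bases just before the transcript start, 5′ to 3′ on the strand of the gene. Capitals mark a match to CCGGAAG, the letters bound by ETS factors such as GABP, on either strand. The length of 156 bases was set to reach the farthest such match before the start among these genes, that of Mrps18c.
Mrpl12, chr11:120484481-120484636, plus strand: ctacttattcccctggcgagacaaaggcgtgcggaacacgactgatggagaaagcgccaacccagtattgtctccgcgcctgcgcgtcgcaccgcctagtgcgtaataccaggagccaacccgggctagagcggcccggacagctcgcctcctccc
Mrpl28, chr17:26123347-26123502, plus strand: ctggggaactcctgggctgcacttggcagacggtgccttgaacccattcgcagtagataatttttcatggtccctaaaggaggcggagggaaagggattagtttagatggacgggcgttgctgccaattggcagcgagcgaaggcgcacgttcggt
Mrpl3, chr9:105053112-105053267, plus strand: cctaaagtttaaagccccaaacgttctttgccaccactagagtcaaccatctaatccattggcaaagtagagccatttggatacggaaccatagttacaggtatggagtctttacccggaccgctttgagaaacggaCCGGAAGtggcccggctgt
Mrpl42, chr10:95501950-95502105, minus strand: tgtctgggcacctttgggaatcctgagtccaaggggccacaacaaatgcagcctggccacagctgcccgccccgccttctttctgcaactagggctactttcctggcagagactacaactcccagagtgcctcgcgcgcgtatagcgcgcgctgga
Mrps18c, chr5:100798603-100798758, plus strand: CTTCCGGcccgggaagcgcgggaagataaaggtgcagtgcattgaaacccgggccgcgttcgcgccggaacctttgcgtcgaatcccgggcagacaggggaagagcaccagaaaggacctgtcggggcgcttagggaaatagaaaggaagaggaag
Mrps18a, chr17:46110848-46111003, plus strand: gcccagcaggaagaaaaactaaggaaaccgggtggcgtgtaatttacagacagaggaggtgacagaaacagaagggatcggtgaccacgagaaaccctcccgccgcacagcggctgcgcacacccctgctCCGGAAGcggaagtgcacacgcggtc

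Mrps11, the remaining member past 1.5-fold, starts head to head with Mrpl46 of the large subunit, and only 41 bases lie between the starts, which is why this stretch is shown whole, on the strand of Mrps11.
Mrps11 and Mrpl46, chr7:78783090-78783130, plus strand: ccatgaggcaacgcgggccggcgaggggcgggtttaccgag
Both genes of this pair were lower in the Mn-treated library, at -0.77 for Mrps11 and -0.35 for Mrpl46.

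The factor-binding stalk of the large subunit, which recruits translation factors, held the most abundant member. Mrpl12, the stalk protein that also binds the mitochondrial RNA polymerase, had 7220 reads without manganese and 5031 with it. Its log2 ratio was -0.59 [-0.64 to -0.53], just past 1.5-fold, and its FPKM values were 252 and 166. Mrpl10, which anchors the stalk, had 2409 and 1949 reads, at -0.37 [-0.46 to -0.28]. Mrpl11, at the base of the stalk, had 358 and 374 reads and lay at -0.001 [-0.21 to 0.21]. So the pair of proteins that form the stalk were lower, while the base protein had nearly equal shares in both libraries.

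The proteins at the catalytic core, and those that bind the large ribosomal RNA early, were all 6 below the middle gene, with a median of -0.41. Of all members 78.2% lay below it, and of other genes of like reads and length 73.9%. The interval lay wholly below it for 5 of the 6, and that of Mrpl16 spans it. For all measured genes the share with the interval below was 31.1%, and for those of like reads and length 54.1%. Mrpl3 had the lowest ratio of any member, with 166 reads without manganese and 70 with it, at -1.30 [-1.73 to -0.90]. It reaches towards the catalytic centre, and mutations of the human gene cause a cardiomyopathy. Its estimated counts were fractional, so its reads may be shared with another gene model and its value is uncertain. Mrpl2, which lines the catalytic centre, had 1172 and 921 reads, at -0.41, and Mrpl4 had 1340 and 1014, at -0.47. Mrpl20, an early RNA binder, had 1026 and 803 reads, at -0.42. These values lay close together. Mrpl15 and Mrpl16 were nearly even, at 0.05 with 1262 and 1365 reads and at -0.06 with 173 and 174 reads.

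The central protuberance, a crest of the large subunit that faces the small subunit, had all 6 of its members below the middle gene, with a median of -0.31. All 6 intervals lay below it too, against 31.1% of all measured genes and 54.1% of those of like reads and length. For Mrpl48 this was marginal: among genes of at least 100 reads the middle gene is at 0.17 and its interval, with an upper end of 0.18, spans it, while Mrpl27 has too few reads to be counted there. Mrpl40 had 185 and 142 reads, at -0.44 [-0.77 to -0.12]. Mrpl46 had 192 and 157, at -0.35 [-0.67 to -0.04], and Mrpl18 had 263 and 230, at -0.26. Mrpl38, the most abundant of these, had 1468 and 1422 reads, at -0.11. Mrpl48 was even, with 482 and 502 reads on fractional counts. Mrpl27 had only 42 and 30 reads, at -0.54 [-1.28 to 0.16], the widest interval of the members. Its mean FPKM over the libraries, 2.53, was the lowest of the large subunit genes.

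The rim of the peptide exit tunnel was mixed. Of its 8 members 4 lay above and 4 below the middle gene, and their median was 0.11. The interval lay wholly above the middle gene for 1 of them, wholly below it for 2, and spanned it for 5. Mrpl24 had 911 and 1198 reads, at 0.33 [0.21 to 0.46], on fractional counts. Mrpl39 had 164 and 217 reads, at 0.34, and Mrpl47 had 146 and 188, at 0.30. Mrpl45, which resembles a protein of the import motor and ties the ribosome to the inner membrane, had 394 and 477 reads, at 0.21. Mrpl17 stood apart from these on the low side, with 2621 and 2018 reads, at -0.44 [-0.53 to -0.36]. Mrpl23 had 1356 and 1321 reads, at -0.10. Mrpl44, a protein with a ribonuclease fold whose human gene is mutated in cardiomyopathy, had 516 and 545 reads, at 0.01, and Mrpl22 had 86 and 89, at -0.01.

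Among the remaining large subunit genes Mrpl28 was low and Mrpl42 high. Mrpl28, a protein with a bacterial relative, had 3511 and 2133 reads, at -0.78 [-0.86 to -0.71], and FPKM values of 138 and 81.2. Mrpl42, a protein added in mitochondria, had 73 and 143 reads, at 0.90 [0.49 to 1.33], the highest ratio of any member. Mrpl50 had 148 and 217 reads, at 0.49, and Mrpl1 had 163 and 234, at 0.46. Abundant genes were found on the high side too. Mrpl33 had 1032 and 1451 reads, at 0.43 [0.31 to 0.54], and Mrpl30 had 1667 and 2191, at 0.33 [0.24 to 0.42]. With Mrpl12 and Mrpl28 they were the 4 large subunit genes with the highest mean FPKM over both libraries. In the untreated library alone Mrpl17 (116 FPKM) and Mrpl58 (112 FPKM) stood above Mrpl30 (102 FPKM) and Mrpl33 (90.0 FPKM), and the 4 highest there were all lower with manganese. Mrpl32, whose maturation by a protease of the inner membrane precedes ribosome assembly, had 221 and 307 reads, at 0.41. Mrpl58, a hydrolase that frees peptides from stalled ribosomes, had 2177 and 1878 reads, at -0.28 [-0.37 to -0.19].

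In the small subunit the 7 genes of the decoding site and the messenger RNA path ranged from the lowest to the highest ratio of that subunit. Mrps11, which lines the exit of the messenger, had 1096 and 674 reads, at -0.77 [-0.91 to -0.63]. Mrps24, at the entry of the messenger, had 1137 and 908 reads, at -0.39, and Mrps7 had 1126 and 926, at -0.35. Mrps12, the protein of the decoding centre itself, had 157 and 146 reads, at -0.17 [-0.50 to 0.17], a value that counting error alone could place on either side of 0. Mrps5 had 894 and 856 reads, at -0.13. Mrps21 had 234 and 311 reads, at 0.35 [0.10 to 0.60], and Mrps18c had 126 and 213, at 0.69 [0.37 to 1.02]. The intervals of Mrps11 and Mrps18c are far apart.

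The Mrps18 paralogs lay on both sides of 0. Mrps18c is the counterpart of the bacterial protein in the small subunit, Mrps18b is a paralog at another site of the small subunit, and Mrps18a sits in the large subunit. Mrps18a had 1507 and 1255 reads, at -0.33 [-0.44 to -0.22], and Mrps18b had 2392 and 1892, at -0.40 [-0.49 to -0.31]. These intervals overlap each other and not that of Mrps18c. Mrps18c was also the least abundant of the paralogs per length, with FPKM values of 8.38 and 14.1, against 71.4 and 57.6 for Mrps18a and 96.8 and 72.7 for Mrps18b.

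**Figure D3:**
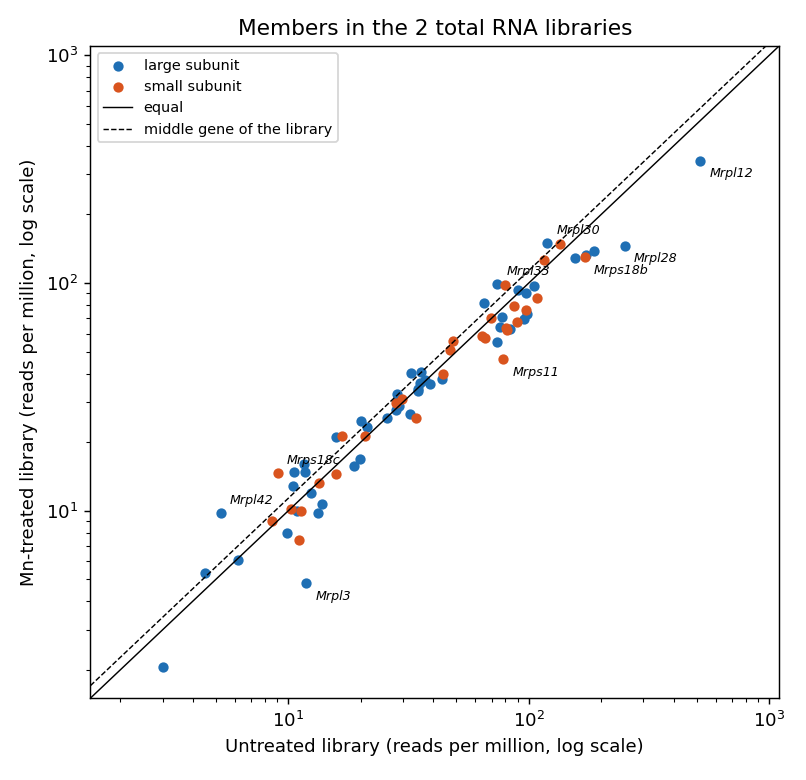
Level of each member, in CPM, in the untreated library (x axis) and the Mn-treated library (y axis), both on log scales. Mrpl12, at 517 and 344 CPM, and Mrpl28, at 251 and 146, lie below the line of equal shares, and Mrpl42, at 5.22 and 9.79, lies above it.

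Other small subunit genes were mostly between these ends. Mrps22 had 154 and 109 reads, at -0.56 [-0.93 to -0.20]. Mrps34 had 1249 and 983, at -0.41, and Mrps16 had 476 and 372, at -0.42, both on fractional counts. Human mutations of all 3 are known to impair mitochondrial translation. On the high side Mrps2, which sits between the head and the body, had 1117 and 1435 reads, at 0.30 [0.18 to 0.41]. Mrps33 had 677 and 809 reads, at 0.19, and Mrps6 had 1622 and 1850, at 0.13, both on fractional counts. Mrps30, a large subunit protein despite its name, had 1892 and 2166 reads, at 0.13 [0.04 to 0.22]. Against the middle gene at 0.18, Mrps6 and Mrps30 were on the low side and Mrps33 was even. Mrps36 had 413 and 451 reads, at 0.06, on fractional counts. By mean FPKM over both libraries, levels ran from Mrps18b and Mrps6 (80.7 and 88.3 FPKM) and Mrps14 (55.2 and 56.4) down to Mrps31 (3.95 and 3.96), Mrps25 (2.01 and 2.08) and Mrps26 (1.83 and 1.84). These last 3 were even between the libraries, with log2 ratios of -0.01, 0.04 and -0.01.

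On a chosen list of 13 members linked to human mitochondrial disease, which need not be complete, 11 lay below the middle gene. That is 84.6%, beside 78.2% of all members and 73.9% of other genes of like reads and length. The 13 had a median of -0.12 and ranged from Mrpl3 at -1.30 to Mrpl24 at 0.33. Between these lay Mrps14 at 0.002 with 975 and 1021 reads, Mrps23 at 0.08 with 393 and 434, Mrps25 at 0.04 with 291 and 312, and Mrps28 at -0.12 with 220 and 212. These 4 had intervals that span 0. The 45 members listed as having bacterial relatives had a median of -0.10, and the 27 listed as added in mitochondria had one of -0.02. Mrpl55, Mrpl57, Mrpl58, Mrps18a, Mrps18b and Mrps36 were on neither list, so the 45 need not be all members with such relatives. By 1.5-fold 4 of the 45 (8.89%) and 0 of the 27 were lower, a difference that was not tested, beside 5.97% of all measured genes. Relative to the middle gene 22.2% and 14.8% were lower by that much. The same share was 11.3% of all measured genes and 17.6% of other genes of like reads and length. The 45 had a median FPKM of 26.6 and the 27 one of 12.4.

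The ratio went with the level of the transcript. Over the 78 members the log2 ratio and the mean FPKM had a Spearman correlation of -0.28, a description over genes of the same pair of libraries, which are not independent. Over the 11794 other measured genes the correlation was -0.30, over 79 cytosolic ribosomal protein genes -0.28, and over 81 nuclear subunits of the respiratory chain -0.34. Members of 30 to 60 FPKM had a median log2 ratio of -0.35 (17 genes, 16 of them below the middle gene), and those of 60 FPKM or more had one of -0.28 (11 genes). Members of 10 to 30 FPKM were at 0.03 (26 genes) and those under 10 FPKM at -0.01 (24 genes). Other genes in the same classes, from the highest level down, stood at -0.11, -0.05, 0.07 and 0.31. The medians of the members were below these in every class, but the classes were not matched for length. Other genes of like reads and length had a median of -0.04, against -0.08 for all members.

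**Figure D4:**
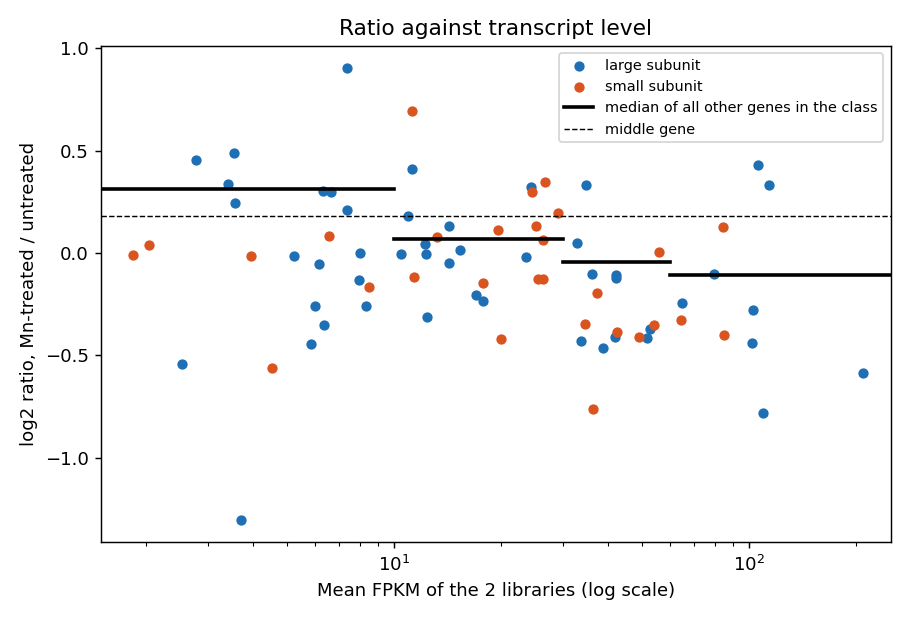
Log2 ratio (y axis) of each member against its mean FPKM over the libraries (x axis, log scale), with black bars at the median of all other measured genes in 4 classes of FPKM. The bars step down from 0.31 to -0.11, and the members under 10 FPKM, with a median of -0.01, lie mostly under theirs.

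Letters known from promoters of mitochondrial genes were present in part of the members. Of the stretches printed above, those of Mrpl3, Mrps18a and Mrps18c hold a match and the others none. The search covered both strands of the whole windows, from 250 bases before to 50 after the start. CCGGAAG was found in 26 of 69 members (37.7%), in 15 of 43 large and 11 of 26 small subunit genes. It was found in 21.2% of 9317 measured genes with a window and in 9.93% of all 27025 genes of the table. In Mrpl3 it begins 19 bases before the start, in Mrps18a 26 bases and in Mrps18c 156 bases. The match of Mrps18c lies near the start of its head-to-head neighbour Helq, which is 159 bases from that of Mrps18c. Whether the letters bear on the ratios was not tested. The NRF1 core motif, a palindrome searched as its exact consensus, was found in 3 members (4.35%, against 2.46% of measured genes and 1.07% of all). They were Mrpl9, Mrpl32 and Mrpl39. The YY1 motif, likewise searched as its exact consensus, was found in 5 members (7.25%, against 2.53% and 0.995%), among them Mrps11 and Mrps18a, and TATAAA in 5 (7.25%, against 7.86% and 15.7%). Members with CCGGAAG had a median log2 ratio of -0.15 and those without it one of 0.002. Among measured genes these medians were 0.11 and 0.19. A match describes letters only.

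Divergent starts were frequent among the members. Of the 69, 26 had a start on the opposite strand within 1000 bases, head to head (37.7%), against 20.2% of measured genes. Besides the Mrps11 and Mrpl46 pair, the partners included other mitochondrial genes, such as Sars2, the mitochondrial seryl-tRNA synthetase, beside Mrps12, Twnk, the mitochondrial DNA helicase, beside Mrpl43, and Ndufb5, a complex I subunit, beside Mrpl47. Sars2 had 815 and 383 reads, at -1.15 [-1.33 to -0.98], while its neighbour Mrps12 was at -0.17. Helq, a helicase of DNA repair beside Mrps18c, had 180 and 131 reads, at -0.52, opposite in sign to its neighbour at 0.69. Over 23 pairs with a measured partner the Spearman correlation of the log2 ratios was 0.20, a weak relation. In 13 of these pairs both genes lay below the middle gene. Taken singly, 16 of the 23 partners and 78.2% of all members lay below it. A link between neighbours was not tested. From the starts used here such neighbours run apart and do not overlap. The counting is not stated to use strand, so reads from other starts that overlap could not be told apart.

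The other genes of mitochondrial translation were near the members. Of 45 measured genes outside the naming rule 34 lay below the middle gene, with a median of -0.03, and past 1.5-fold 3 were higher (6.67%) and 2 lower (4.44%), against 21.6% and 5.97% of all measured genes. Among ribosomal proteins with other names, Chchd1 had 1307 and 1021 reads, at -0.42, Aurkaip1 had 1009 and 885, at -0.25, and Dap3, a GTP-binding protein of the small subunit head, had 1292 and 1499, at 0.15. Ptcd3 had 137 and 185 reads, at 0.37, on fractional counts. Gadd45gip1, a large subunit protein, lay far from the rest with 11 and 72 reads, at 2.59 [1.72 to 3.71], on fractional counts. Its value is therefore uncertain.

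Assembly factors had a median of -0.08, and 20 of 23 lay below the middle gene. The lowest were Mrm3, a methyltransferase of the large ribosomal RNA, with 171 and 108 reads at -0.72 on fractional counts, Mtg2, a GTPase of large subunit assembly, with 1085 and 764 at -0.57, and Eral1, a chaperone of the small ribosomal RNA, with 508 and 414 at -0.36. The highest were Mterf4 with 55 and 101 reads at 0.81, Mrm2 with 132 and 176 at 0.35 and Gtpbp10 with 132 and 168 at 0.28. Translation factors had a median of 0.005. The elongation factors Tufm, which brings aminoacyl-tRNA to the ribosome, and Tsfm were both lower. Tufm had 3977 and 3046 reads, at -0.45 [-0.52 to -0.38], on fractional counts. Tsfm had 1649 and 1103 reads, at -0.64 [-0.76 to -0.53]. Mtfmt, which formylates the initiator tRNA, had 104 and 78 reads, at -0.48. At the other end stood Lrpprc, which stabilises mitochondrial messengers, with 589 and 918 reads at 0.58 on fractional counts, Mtrf1l with 48 and 69 at 0.45, and Pdf with 7 and 15 at 0.98 [-0.35 to 2.57], also fractional.

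Beside like gene groups the members were low but not alone. The 81 nuclear respiratory chain subunits had a median log2 ratio of -0.03 with 64 below the middle gene, and the 79 cytosolic ribosomal protein genes had one of 0.08 with 54 below it. Cytosolic genes were more even, with an interquartile range of 0.31 and 0 of 79 past 1.5-fold in either direction. The circRNA table of the series, with 2253 circular RNAs, listed 0 from any member gene and 1 from the other genes of mitochondrial translation. The share of all genes that host one was not computed, so the 0 is not read as a trait of the members.

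The authors' deposited log2 fold changes, which are ratios of FPKM, were close to the ratios from reads for most members. After the shift of 0.02 between the median gene on both scales, 4 members differed by over 0.3 (5.13%, against 13.9% of measured genes). Mrps5 had 894 and 856 reads but FPKM values of 21.2 and 29.6, so that its log2 value is -0.13 from reads and 0.48 in the authors' deposited table. Mrps15 is at 0.08 from reads, with 119 and 132, and at -0.40 in the authors' deposited table. For both the sign turned. Mrpl47 is at 0.30 from reads and at 0.88 in the authors' deposited table, and Mrpl3 at -1.30 and -1.71. The length implied by reads per FPKM differed between the libraries by -0.63 (log2, Mn-treated over untreated) for Mrps5, -0.60 for Mrpl47, 0.46 for Mrps15 and 0.38 for Mrpl3. The cause was not tested.

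**Figure D5:**
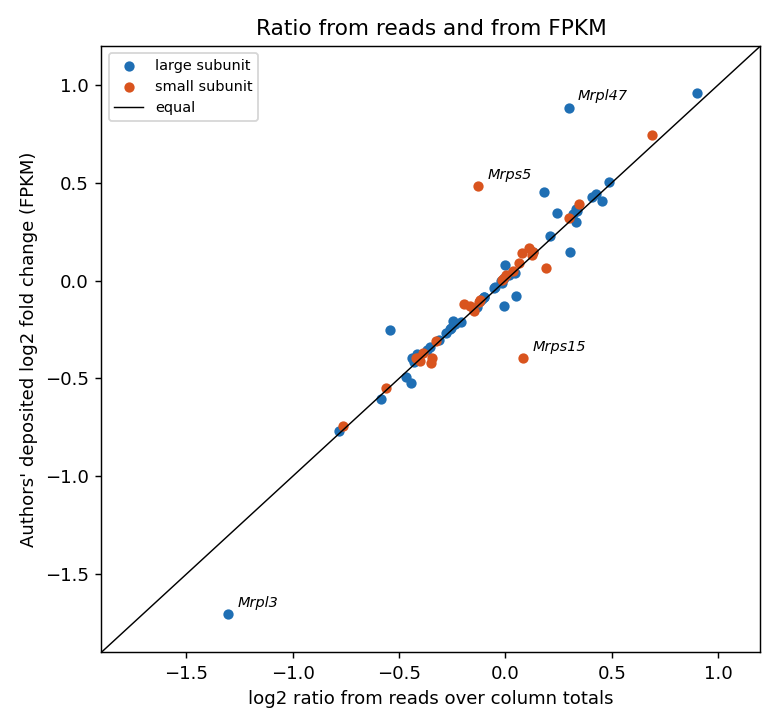
Log2 fold change of FPKM in the authors' deposited table (y axis) against the log2 ratio from reads over column totals (x axis), 1 point per member. Most points lie on the line of equal values; Mrps5, Mrps15, Mrpl47 and Mrpl3 lie off it by over 0.3.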

How the data were processed

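Total RNA of untreated and Mn-treated N2a cells, 1 library each, was read out per gene. The tools named in the submitters' processing notes are StringTie, Bowtie2 and fastp 0.18.0, with build mm9 and no role or order. The program that counted reads is not given in the sources used here. Per gene, the authors deposited estimated counts per gene, fractional for 13.3% of genes, FPKM values, and log2 fold changes that equal the log2 ratio of FPKM with 0 replaced by 0.001. The authors also deposited whole counts of circRNA junction reads. Columns were matched to libraries by title, and 0 were left over.

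Estimated counts were rounded to whole numbers. Log2 ratios used a pseudocount of 0.5 and column totals, with exact conditional 95% intervals (SciPy 1.17.1). At least 20 reads over both libraries counted as measured. Library totals of 13972437 and 14606961 reads set the precision. With 1 library per group no test was made. The ratio step was tested on simulated counts. Median-ratio scaling, TMM factors (edgeR 4.0.16), other read minimums, a pseudocount of 1, whole counts only and the deposited fold changes were tried as alternatives.

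The members and gene lists were chosen with earlier results of these data known. Named genes were the 6 highest and 6 lowest ratios per subunit among those of 100 reads or more in either library, the 4 highest and 3 lowest FPKM per subunit, the role and disease lists, the Mrps18 paralogs, Mrps30, Mrps36, and the 3 highest and 3 lowest of each list of other genes. Mrpl58, Mrpl9, Mrpl43, Mrps15 and the head-to-head neighbours were named outside this rule, after their values were seen. The planned names Ict1 and Mrp63 are Mrpl58 and Mrpl57 in the table and so are members.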

Additional observations from a re-analysis of the deposited data

How the results depend on the processing

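The scale of the libraries decided how many members counted as changed. With median-ratio scaling the subunit medians were -0.24 (large) and -0.30 (small), with 1 member higher and 14 lower by 1.5-fold, and with TMM factors there were 1 and 13 (medians of -0.23 and -0.29). Of all measured genes, 13.4% were higher and 11.3% lower by 1.5-fold with median-ratio scaling, and 13.6% and 11.0% with TMM factors. The share of members below 0 moved with the scale, from 48 of 78 to 61 with median-ratio scaling and 60 with TMM factors. Both scalings move every gene by 1 factor, so they cannot change the difference between the subunit medians or the count below the middle gene. That difference was 0.06 in the main analysis and 0.02 with the deposited fold changes or with whole counts only. Members below the middle gene numbered 61 of 78 in the main analysis, 60 with the deposited fold changes, 59 of 77 with at least 100 reads and 52 of 67 with whole counts only. As shares of summed FPKM the subunit ratios were 0.924 (large) and 0.956 (small). Without the most abundant gene of each, a choice made after seeing the data, they were 0.896 and 0.929. Of 534 single-gene values under alternatives 453 stayed within the main counting interval and 81 left it, 76 of these under the other scalings. The read minimums and whole counts only drop genes and keep every remaining ratio, so those values could not leave it. Of 78 members 40 left it with median-ratio scaling, 36 with TMM factors, 5 with the deposited fold changes and 0 with a pseudocount of 1. In sign, 0 of the members past 1.5-fold turned. The deposited fold changes give no counting interval. Members with few reads, such as Mrpl27 (42 and 30), could hide a difference of 1.5-fold at this depth. No paired analysis was possible because each group has 1 library.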
